A study of Homo sapiens with 7 samples.

Results

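The 38 genes described here encode the aminoacyl-tRNA synthetases and the scaffolds that hold some of them together. They were taken by symbol from a fixed list: 20 cytosolic synthetases, 16 mitochondrial synthetases with a symbol ending in 2, and the scaffold genes AIMP1 and AIMP2. All 38 were found among the 20056 gene symbols with values, and all 38 passed the expression filter that left 14305 genes for testing (mean RPKM of 1 or more in any of the 3 measurements). Log-phase HCT116 cells, an established human colorectal carcinoma line grown without serum but with epidermal growth factor, insulin and transferrin, were divided between 3 assays. GRO-seq, the sequencing of nascent RNA from a nuclear run-on, gave the transcription rate (TR, 2 libraries), RNA-seq of isolated mRNA gave the steady-state mRNA abundance (RA, 3 libraries), and sequencing of polysome-associated mRNA gave the translation activity (TA, 2 libraries). The question was how far the 3 measurements of a gene differ, read as a stability index, log2(RA/TR), and a translation index, log2(TA/RA). The groups differ by assay and not by mutation or cell line. Cells for TA were incubated with cycloheximide, which holds ribosomes on the mRNA, before polysomes were isolated, and no such step is given for RA and TR. The labels give only the cell line, the assay and a replicate number, so it is not stated there that replicates were separate cultures. The authors call them biological replicates without describing the cultures. The p-values below measure the spread between these libraries.

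Aminoacyl-tRNA synthetases join each amino acid to its tRNAs and so supply the ribosome with charged tRNA. Cytosolic and mitochondrial translation mostly use separate enzymes, and the mitochondrial enzymes are also encoded in the nucleus and imported. Several cytosolic synthetases are bound in the multi-synthetase complex around AIMP scaffold proteins, and the enzymes fall into class I and class II by the fold of their catalytic domain. GARS and KARS make both the cytosolic and the mitochondrial form of their enzyme from a single gene, and EPRS carries the glutamyl and the prolyl activity in a single protein.

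Values are RPKM, the reads on a gene's exons scaled to the length of the exons and to a read total of the library. Levels are therefore per length and are shares of that total. A smaller share and fewer molecules per cell cannot be told apart. The totals recovered from the RPKM values were 3391897 and 5629982 for GRO-seq and between 20299018 and 30805391 for the other 5 libraries. Of each total, 99.7% to 99.8% lay on the listed genes. Reads outside the exons of genes are thus nearly absent from the totals, which do not give the sequencing depth. No synthetase gene was near the floor of 3 reads: the lowest had 34 reads, for WARS2 in TR replicate 1. The 5 epithelial markers EPCAM, CDH1, KRT8, KRT18 and KRT19 were all detected in every library, the lowest at 20.03 RPKM. The 4 fibroblast markers COL1A1, COL3A1, DCN and LUM summed to at most 20 RPKM, nearly all of it COL1A1, and the 4 blood markers to at most 11 RPKM.

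Sequence around the start of these genes is shown first, because several cytosolic synthetases that differed between replicate libraries, described further on, carried the same 8 letters there. The window from 250 bases before to 50 bases after the annotated start was searched on both strands for TGATGNAA, the letters of the C/EBP-ATF response element known from asparagine synthetase and other genes of amino acid supply. RefSeq sequences of build GRCh38.p14 were matched for 32 of the 38 genes. DARS, LARS, VARS, YARS, AARS2 and VARS2 were not matched. The letters stood in the window of 7 of 16 matched cytosolic genes (43.8%), 1 of 14 mitochondrial genes (7.14%) and 0 of the 2 scaffold genes. Over all 35116 annotated starts in the same table, 1270 windows (3.62%) held them, and 1217 of 27305 genes (4.46%) had at least 1 such start. Each line gives 30 bases on the strand of the gene, with the 8 matched letters in capitals. TTGCATCA and TTTCATCA are the matches read from the opposite strand.
AARS, chr16:70289675-70289704, minus strand: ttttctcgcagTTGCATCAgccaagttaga
CARS, chr11:3057407-3057436, minus strand: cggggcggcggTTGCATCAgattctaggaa
GARS, chr7:30594834-30594863, plus strand: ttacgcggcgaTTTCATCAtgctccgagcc
IARS, chr9:92293692-92293721, minus strand: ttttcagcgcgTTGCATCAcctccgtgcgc
MARS, chr12:57488053-57488082, plus strand: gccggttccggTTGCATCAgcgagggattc
NARS, chr18:57621804-57621833, minus strand: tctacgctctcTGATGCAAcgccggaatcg
TARS, chr5:33440956-33440985, plus strand: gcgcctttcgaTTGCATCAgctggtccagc
YARS2, chr12:32756076-32756105, minus strand: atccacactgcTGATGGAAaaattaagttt

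Of the 7 cytosolic matches, 6 read TGATGCAA and the GARS match reads TGATGAAA. In CARS, IARS, MARS, NARS and TARS the first matched base lay within 15 bases of the annotated start, in GARS 33 bases before it and in AARS 187 bases before it. CARS, GARS and TARS each have 2 annotated starts in the table, and in each gene 1 of them held the letters. The 250 bases before the AARS start are printed because AARS had the highest RA and TA of the 38 genes and the largest difference between RNA-seq replicates.
AARS, chr16:70289507-70289756, minus strand: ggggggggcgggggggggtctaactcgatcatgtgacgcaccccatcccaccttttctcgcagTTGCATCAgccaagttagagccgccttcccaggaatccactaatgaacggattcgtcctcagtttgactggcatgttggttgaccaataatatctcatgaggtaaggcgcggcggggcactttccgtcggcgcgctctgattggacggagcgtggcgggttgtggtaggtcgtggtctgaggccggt
A match is a description of these letters and was not tested for any effect.

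At TR the cytosolic and mitochondrial synthetase genes overlapped widely, and at TA they did not overlap at all. The median of the 20 cytosolic genes was 30.6 RPKM in TR, 82.1 in RA and 117.8 in TA (medians of the mean RPKM). That of the 16 mitochondrial genes was 19.5 in TR, 14.95 in RA and 17.5 in TA. In TR, 14 of 16 mitochondrial genes lay above the lowest cytosolic gene, WARS (10.7 RPKM). In RA only IARS2 (62.4 RPKM) lay above the lowest cytosolic gene, HARS (48.8), and in TA the highest mitochondrial gene, IARS2 at 39.5 RPKM, lay below the lowest cytosolic gene, QARS at 72.7.

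Summed over the 20 cytosolic genes, RPKM came to 611 and 592 at TR. It came to 1329, 2317 and 1699 in RA replicates 1 to 3 and to 3426 and 2399 at TA. The sum over the 16 mitochondrial genes stayed between 284 and 334 in all 7 libraries. The difference between the cytosolic and the mitochondrial median on the log2 scale was 0.69 ± 0.02 in TR (SD, n = 2), 2.46 ± 0.40 in RA (n = 3) and 2.79 ± 0.06 in TA (n = 2). The wide SD in RA came with a difference of 2.06, 2.87 and 2.45 in replicates 1 to 3, and the lowest RA library still lay above both TR libraries.

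**Figure D1:**
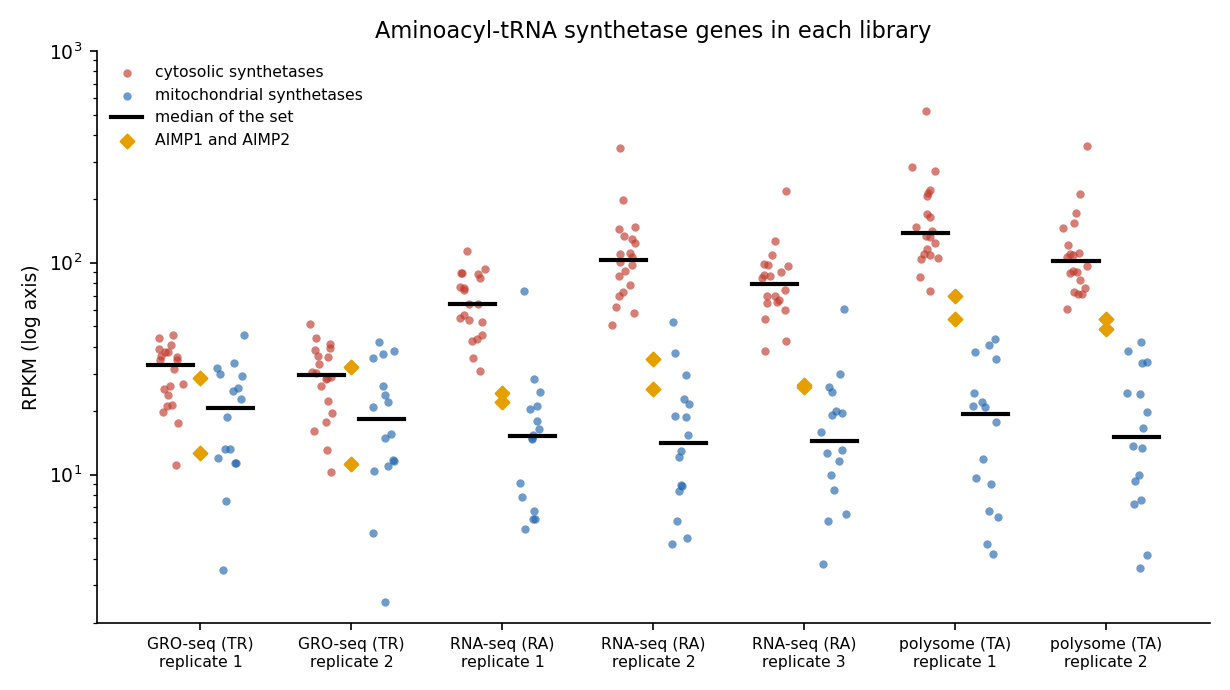
RPKM (log axis) of every synthetase gene in each of the 7 libraries; each dot is a gene, the black bar is the median of the set and diamonds are the scaffold genes AIMP1 and AIMP2. The medians of the cytosolic set lie at 29.6 and 33.0 RPKM in TR and at 102 and 137 in TA, while those of the mitochondrial set lie between 14.1 and 20.7 RPKM in every library.

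The stability index of the cytosolic synthetases was above 0 for all 20, and most were called. In limma, with the p-value adjusted by Benjamini-Hochberg over the 14305 genes and a threshold of 0.05, RA was above TR for 17 of the 20 and below for none. Over all genes tested, 19.2% were called above TR (2743) and 48.0% below (6870). Every RA library lay above every TR library for 19 of the 20, against 24.3% of all genes. The 20 log2 ratios ran from 0.33 to 2.24 with a median of 1.61, and the median over all genes was -0.58. Those not called were HARS, MARS and SARS, with log2 ratios of 0.33, 0.65 and 1.05. When every library was centred on its own median, the median of all genes moved from -0.58 to 0.09, the calls over all genes became 5066 above and 4814 below, and all 20 cytosolic genes were called above TR.

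EPRS, the glutamyl-prolyl synthetase of the multi-synthetase complex, had the highest ratio of the set. Its RPKM was 21.3 and 16.04 in TR and 63.6, 109.7 and 97.0 in RA, so that the lowest RA library was about 3 times the highest TR library. The log2 ratio was 2.24 ± 0.26 (SE, limma adjusted p = 0.00012). WARS, the tryptophanyl enzyme, which is known to be induced by interferon gamma, had the lowest TR of the cytosolic set at 11.1 and 10.3 RPKM. It reached 43.5, 72.6 and 38.3 RPKM in RA, a log2 ratio of 2.20 ± 0.37 (limma adjusted p = 0.00098). GARS, the glycyl enzyme, stood at 26.2 and 28.4 RPKM in TR and 76.1, 198 and 126 in RA, and its log2 ratio was 2.18 ± 0.39 (limma adjusted p = 0.0014). For these 3 genes no RA library overlapped a TR library, although WARS and GARS varied within RA by 1.89 and 2.60 times.

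AARS, the alanyl enzyme (GRCh37 chromosome 16, 70285886 to 70323610, minus strand), was at 39.0 and 44.03 RPKM in TR and at 84.8, 346 and 218 in RA. The groups did not overlap, and the log2 ratio of 2.16 ± 0.52 was called (limma adjusted p = 0.0066). The call was lost without TR replicate 1 (limma adjusted p = 0.085) or TR replicate 2 (0.073), with log2 ratios of 2.07 and 2.25. Calls of CARS and YARS also depended on single libraries. CARS, with a log2 ratio of 1.51, was lost without TR replicate 1 (limma adjusted p = 0.15), TR replicate 2 (0.12) or RA replicate 3 (0.055). YARS, at 1.21, was lost without either TR library (limma adjusted p = 0.18 for each) and without RA replicate 2 (0.059) or RA replicate 3 (0.075).

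FARSA, FARSB and KARS varied little among the RA libraries. FARSA and FARSB, the alpha and beta chains that together form the cytosolic phenylalanyl synthetase, did not have the same TR. FARSA stood at 44.1 and 39.7 RPKM in TR and at 89.3, 86.1 and 86.1 in RA. FARSB stood at 23.8 and 17.7 RPKM in TR and at 56.5, 69.4 and 64.3 in RA. Both were above TR, with log2 ratios of 1.06 ± 0.16 and 1.62 ± 0.19. KARS, the lysyl enzyme, was at 34.8 and 36.0 RPKM in TR and 113, 123 and 109 in RA, a log2 ratio of 1.70 ± 0.17 (limma adjusted p = 4.6e-05).

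HARS, the histidyl enzyme, changed least from TR to RA. It was at 36.3 and 41.3 RPKM in TR and 52.7, 51.0 and 42.8 in RA, and although the libraries did not overlap the log2 ratio of 0.33 ± 0.18 was not called (limma adjusted p = 0.15). MARS, the methionyl enzyme, was the only cytosolic gene with overlapping libraries, at 41.1 and 51.6 RPKM in TR and 45.6, 112 and 74.1 in RA. Its exons overlap those of ARHGAP9 and DDIT3 over 12.4% of their length in the GRCh37 annotation, and the strand setting of the counting is not given in the sources used here. MARS was called above TR without RA replicate 1 (log2 ratio 0.98, limma adjusted p = 0.019). SARS, the seryl enzyme, was at 26.9 and 30.3 RPKM in TR and 35.3, 97.4 and 60.0 in RA, with a log2 ratio of 1.05 ± 0.41 (limma adjusted p = 0.052). It was called without RA replicate 1 (limma adjusted p = 0.0072) and without either TA library (0.049 for each).

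For the mitochondrial synthetases, RA was above TR for 4 of the 16 (IARS2, WARS2, RARS2 and NARS2) and below for 7 (AARS2, MARS2, CARS2, YARS2, PARS2, VARS2 and SARS2), which is near the shares of all genes called above (19.2%) and below (48.0%). The log2 ratios ran from -2.45 to 1.40 with a median of -0.24, beside -0.58 for all genes. The median of the set changed sign to 0.43 when libraries were centred on their medians, with 7 genes then called above and 3 called below. No RA library overlapped a TR library for 5 genes on the high side and 7 on the low side, against 24.3% and 54.9% of all genes. The number called above was 2 without TR replicate 2, which took NARS2 and RARS2 out.

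AARS2, the mitochondrial alanyl enzyme (GRCh37 chromosome 6, 44266468 to 44281084, minus strand), had the lowest ratio. It was at 32.0 and 37.2 RPKM in TR and at 6.18, 6.01 and 6.53 in RA. The 3 RA libraries were nearly equal and all far below TR, and RA was 5.46 times lower (log2 ratio -2.45 ± 0.17, limma adjusted p = 7e-06). MARS2, the methionyl enzyme, went from 25.6 and 26.3 RPKM in TR to 7.84, 8.97 and 11.6 in RA, a log2 ratio of -1.46 ± 0.20. CARS2, the cysteinyl enzyme, had the highest TR of the mitochondrial set at 45.4 and 42.4 RPKM and was at 21.1, 18.6 and 19.97 in RA, a log2 ratio of -1.14 ± 0.15. AARS2, MARS2 and CARS2 were the 3 still called below TR after centring the libraries. YARS2, PARS2 and VARS2 kept ratios below 0 (-0.30, -0.24 and -0.18) but were not called.

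At the other end, IARS2, the mitochondrial isoleucyl enzyme, was at 24.8 and 21.97 RPKM in TR and 73.9, 52.6 and 60.7 in RA. Every RA library was above both TR libraries, and the log2 ratio of 1.40 ± 0.19 (limma adjusted p = 0.00026) was within the range of the cytosolic set. WARS2, the tryptophanyl enzyme, was the least transcribed member at 3.54 and 2.51 RPKM in TR and was at 5.53, 8.39 and 8.46 in RA, with a log2 ratio of 1.27 ± 0.26 (limma adjusted p = 0.0029). RARS2, the arginyl enzyme, was at 18.7 and 15.5 RPKM in TR and at 24.4, 37.6 and 29.9 in RA. Its log2 ratio was 0.82 ± 0.21 (limma adjusted p = 0.0086) and was not called without TR replicate 2 (0.086). NARS2, at 0.62, was not called without any of TR replicates 1 and 2 and RA replicates 2 and 3 (limma adjusted p from 0.092 to 0.15).

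**Figure D2:**
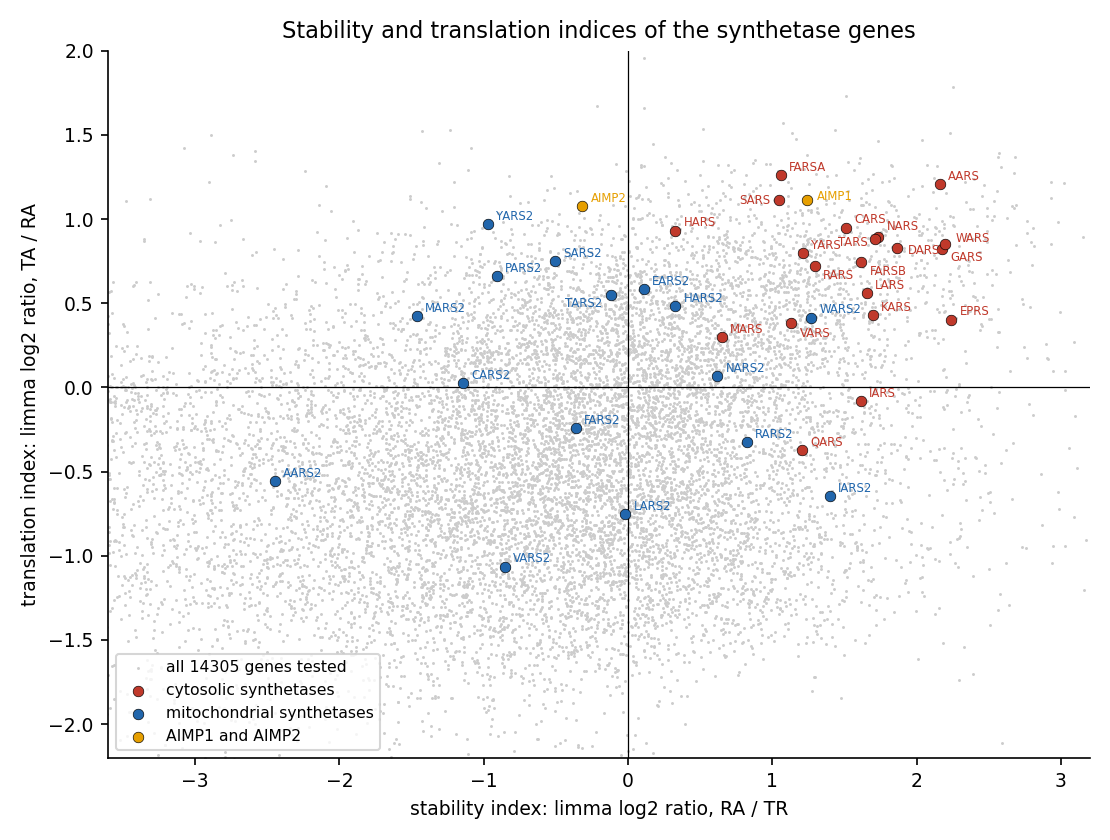
Stability index (x, limma log2 ratio of RA to TR) against translation index (y, limma log2 ratio of TA to RA) of each synthetase gene, over the genes tested in grey; genes outside the axes are not drawn, and both indices use the same RA libraries. All 20 cytosolic genes lie to the right of 0, and the 16 mitochondrial genes lie from -2.45 to 1.40. Centring the libraries shifts the median of all genes from -0.58 to 0.09 on the x axis and from -0.37 to 0.13 on the y axis.

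The translation index of most cytosolic synthetases was positive, but few were called. TA was above RA in limma for 5 of the 20 (FARSA, HARS, DARS, FARSB and RARS) and below for none, where 6.66% of all genes were called above (953) and 29.2% below (4173). Every TA library lay above every RA library for 9 of the 20, against 14.4% of all genes, and below for 1, QARS, against 43.8%. The log2 ratios ran from -0.37 to 1.26 with a median of 0.81, and the median over all genes was -0.37. Centring the libraries moved the median of all genes to 0.13, the calls over all genes to 2713 above and 1404 below, and the cytosolic count to 16. The cytosolic count also depended on single libraries: it was 13 without RA replicate 2, 3 without RA replicate 3 and 1 without TA replicate 1. The cytosolic median was 0.46 without TA replicate 1 and ran up to 1.04 with other libraries left out.

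FARSA had the highest translation index of the 38 genes. It was at 206 and 211 RPKM in TA against 86.1 to 89.3 in RA, so that both TA libraries were more than 2 times every RA library, and the log2 ratio was 1.26 ± 0.16 (limma adjusted p = 0.0031). FARSB was at 105 and 107 RPKM in TA, with a log2 ratio of 0.74 ± 0.19 (limma adjusted p = 0.019) that was not called without RA replicate 3, TA replicate 1 or TA replicate 2. HARS, whose stability index was not called, was at 104 and 82.9 RPKM in TA, above all 3 RA libraries, with a log2 ratio of 0.93 ± 0.18 (limma adjusted p = 0.0083). DARS and RARS, the aspartyl and arginyl enzymes of the complex, had log2 ratios of 0.83 and 0.72. HARS, DARS and RARS were not called without TA replicate 1 (limma adjusted p = 0.065, 0.094 and 0.14), and RARS was also not called without RA replicate 3 (0.077).

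Other cytosolic genes had large indices with wide spread. AARS was at 518 and 354 RPKM in TA, the highest of the 38 genes, and the log2 ratio was 1.21 ± 0.52 (limma adjusted p = 0.11). Both TA libraries lay above all 3 RA libraries, the lower by little (354 against 346), and AARS was called without RA replicate 2 (log2 ratio 1.66, limma adjusted p = 0.019). SARS was at 169 and 96.7 RPKM in TA, the second of which lay just below RA replicate 2 (97.4), with a log2 ratio of 1.11 ± 0.41 (limma adjusted p = 0.068) that was called without RA replicate 2 (1.47, limma adjusted p = 0.014).

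GARS was at 281 and 171 RPKM, WARS at 132 and 60.6, and EPRS at 124 and 109 in TA. In each of these the lower TA library fell below the highest RA library. None of the 3 was called: their log2 ratios were 0.82 ± 0.39, 0.85 ± 0.37 and 0.40 ± 0.26. GARS and WARS were called without RA replicate 2 (limma adjusted p = 0.026 and 0.033), and WARS also without TA replicate 2 (0.033). KARS was at 164 and 146 RPKM, above every RA library, with a log2 ratio of 0.43 ± 0.17 (limma adjusted p = 0.077).

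QARS, IARS and MARS were at the low end of the cytosolic set. QARS, the glutaminyl enzyme, was at 45.6 and 36.3 RPKM in TR, 88.9, 106 and 87.7 in RA and 73.9 and 71.5 in TA, so both TA libraries lay below every RA library. Its log2 ratio of -0.37 ± 0.18 was not called (limma adjusted p = 0.15) and was 0.13 after centring. IARS, the isoleucyl enzyme, was at 36.0 and 33.1 RPKM in TR, 89.2, 134 and 99.1 in RA and 141 and 71.3 in TA. The TA libraries enclosed the RA libraries, and the log2 ratio was -0.08 ± 0.31, which was 0.42 after centring, 0.09 without RA replicate 2 and 0.41 without TA replicate 2. MARS was at 109 and 72.8 RPKM in TA with a log2 ratio of 0.30 ± 0.37 (limma adjusted p = 0.55), which was -0.03 without RA replicate 1.

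Among the mitochondrial genes, TA was above RA for 3 (YARS2, SARS2 and PARS2) and below for 4 (VARS2, LARS2, IARS2 and AARS2), where 6.66% of all genes were called above and 29.2% below. The count below is near that share. The median log2 ratio was 0.24 with a range of -1.06 to 0.97, beside -0.37 for all genes. Every TA library lay above every RA library for 8 of the 16 and below for 5, against 14.4% and 43.8% of all genes. After centring, 9 genes were called above and none below. Of the single libraries, the count above was 1 without TA replicate 1 and 1 without TA replicate 2. The count below was 1 without TR replicate 1, TR replicate 2, RA replicate 3, TA replicate 1 or TA replicate 2.

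YARS2, the mitochondrial tyrosyl enzyme, was at 33.6 and 38.2 RPKM in TR, 16.5, 18.8 and 19.6 in RA and 37.9 and 33.8 in TA. Both steps passed the test in opposite directions, with a log2 ratio of -0.97 ± 0.16 from TR to RA and 0.97 ± 0.16 from RA to TA (limma adjusted p = 0.001 and 0.0052). SARS2, the seryl enzyme, had the same form at 30.0 and 35.3 RPKM in TR, 20.3, 22.6 and 25.9 in RA and 35.2 and 42.0 in TA. Its log2 ratios were -0.51 ± 0.18 and 0.75 ± 0.18 (limma adjusted p = 0.036 and 0.017). The first was 0.16 after centring and was not called without TR replicate 1, TR replicate 2, RA replicate 1 or RA replicate 2 (limma adjusted p from 0.053 to 0.18). The second was not called without TA replicate 1 (limma adjusted p = 0.0502) or TA replicate 2 (0.093). Exons of SARS2 overlap those of another annotated coding gene over 48.2% of their length in GRCh37, and reads from the overlap cannot be told apart. The annotated exons cover 3098 bases and the exon length recovered from the RPKM values was 2136. How much of the overlap was counted is therefore not known.

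PARS2, the prolyl enzyme, was at 11.4 and 10.4 RPKM in TR, 6.71, 4.71 and 6.01 in RA and 8.99 and 9.31 in TA, with log2 ratios of -0.91 ± 0.21 and 0.66 ± 0.21. Its translation index was called with all libraries (limma adjusted p = 0.040) but was lost without TR replicate 1 (0.074), TR replicate 2 (0.074), RA replicate 2 (0.095), RA replicate 3 (0.087), TA replicate 1 (0.14) or TA replicate 2 (0.14). In RPKM as deposited, TA lay near TR for these 3 genes while RA was lower than both. After centring, none of the 3 was called below TR, with log2 ratios of -0.30 for YARS2 and -0.24 for PARS2 (limma adjusted p = 0.16 and 0.33) beside that of SARS2.

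VARS2, the mitochondrial valyl enzyme, was lower at each step in RPKM as deposited. It was at 29.1 and 23.9 RPKM in TR, 15.4, 15.3 and 13.0 in RA and 6.29 and 7.56 in TA, with log2 ratios of -0.85 ± 0.19 and -1.06 ± 0.19 (limma adjusted p = 0.0038 and 0.0057). The first was -0.18 after centring (limma adjusted p = 0.41). AARS2 was at 4.22 and 4.19 RPKM in TA, below all RA libraries, with a translation index of -0.56 ± 0.17 (limma adjusted p = 0.038). IARS2 was at 40.7 and 38.3 RPKM in TA and LARS2, the leucyl enzyme, at 6.73 and 7.27, after 13.2 and 10.9 in TR and 14.9, 8.80 and 12.7 in RA.

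The translation indices of IARS2 and LARS2 were -0.65 ± 0.19 and -0.75 ± 0.25 (limma adjusted p = 0.031 and 0.047). Apart from VARS2, these calls were near the threshold. AARS2 was called without RA replicate 1 alone of the 7 left-out libraries, IARS2 without RA replicate 1 or RA replicate 2, and LARS2 without RA replicate 2. The limma adjusted p of the lost calls ran from 0.051 to 0.13 for AARS2, 0.056 to 0.12 for IARS2 and 0.087 to 0.18 for LARS2. After centring, only VARS2 kept a ratio far from 0 (-0.56, limma adjusted p = 0.056).

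MARS2, CARS2, WARS2 and RARS2, which stood at the ends of the stability index, were not called at this step. MARS2 was at 11.8 and 13.4 RPKM in TA with a log2 ratio of 0.43 ± 0.20 (limma adjusted p = 0.14), CARS2 at 20.8 and 19.6 with 0.03 ± 0.15, WARS2 at 9.68 and 9.91 with 0.41 ± 0.26, and RARS2 at 24.3 and 23.9 with -0.32 ± 0.21. CARS2 changed sign to -0.02 without RA replicate 2 and without TA replicate 1, and RARS2 to 0.18 after centring.

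The scaffold genes had translation indices close to each other and stability indices of opposite sign. AIMP1 was at 12.7 and 11.2 RPKM in TR, 24.1, 35.2 and 26.5 in RA and 69.5 and 54.1 in TA. AIMP2 was at 28.5 and 32.2 RPKM in TR, 22.03, 25.3 and 25.9 in RA and 54.2 and 48.7 in TA. RA was above TR for AIMP1 (log2 ratio 1.24 ± 0.21, limma adjusted p = 0.0011), while AIMP2 was not called (-0.32 ± 0.16, limma adjusted p = 0.12) and changed sign to 0.36 after centring. TA was above RA for both, with log2 ratios of 1.11 ± 0.21 and 1.08 ± 0.16 (limma adjusted p = 0.0074 and 0.0040), and AIMP1 was lost without TA replicate 1 (0.059). Exons of AIMP2 overlap those of EIF2AK1 over 29.1% of their length in GRCh37.

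The genes were also counted by complex and by enzyme class, with no test of the difference between these groups. Over all genes, 19.2% were called above TR and 6.66% above RA. Of 10 genes of the multi-synthetase complex (EPRS, IARS, LARS, MARS, QARS, RARS, KARS, DARS, AIMP1 and AIMP2, without the scaffold gene EEF1E1, which is given further on), 8 were called above TR and 4 above RA, with median log2 ratios of 1.45 and 0.49. Of the 12 cytosolic synthetases outside it, 10 were called above TR and 3 above RA, with medians of 1.56 and 0.89. Among class I cytosolic enzymes, leaving EPRS out since it holds an enzyme of each class, 8 of 9 were above TR (median 1.29) and 1 of 9 above RA (0.56). Among class II enzymes 8 of 10 were above TR (median 1.70) and 4 of 10 above RA (0.89).

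Each mitochondrial gene was then set beside the cytosolic gene for the same amino acid, which gave 17 pairs, with EPRS used for both EARS2 and PARS2 and FARS2 for both FARSA and FARSB. The median ratio of cytosolic to mitochondrial mean RPKM was 1.71 in TR, 5.87 in RA and 9.84 in TA. The ratio was higher in every RA library than in both TR libraries for 15 of the 17 pairs, in both TA libraries than in both TR libraries for 17, and in both TA libraries than in every RA library for 8. In TR the mitochondrial gene was the higher of the pair for CARS2 (2.09 times CARS) and SARS2 (1.14 times SARS), and in RA and TA for none. A ratio of 2 genes within a library does not depend on how the library was scaled. Pairs of other genes were not counted in this way, so no share stands beside these counts. The paper reports that values over all genes were more spread out at RA than at TR, and most at TA. Whether the synthetase pairs moved more than other pairs of a higher and a lower expressed gene was not tested.

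The alanyl pair moved furthest. AARS was 1.20 times AARS2 in TR, 34.6 times in RA and 103.8 times in TA. Per library, the log2 of the ratio was 0.28 and 0.24 for TR, 3.78, 5.85 and 5.06 for RA and 6.94 and 6.40 for TA, so the 3 groups did not overlap. The valyl pair went from 1.16 to 4.66 and 12.8 times and the tyrosyl pair from 1.07 to 5.25 and 4.54 times. The cysteinyl pair turned over: CARS was 0.480 times CARS2 in TR, 3.37 times in RA and 5.89 times in TA.

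The histidyl and isoleucyl pairs moved least. HARS and HARS2 lie on opposite strands of chromosome 5 of GRCh37, and their annotated start regions overlap. The start of HARS2 lies inside HARS, 107 bases from the start of HARS. HARS2 was at 22.7 and 21.0 RPKM in TR, 28.3, 29.7 and 24.6 in RA and 43.5 and 33.9 in TA, and both of its ratios were below the threshold (0.33 ± 0.18 and 0.48 ± 0.18). The ratio of HARS to HARS2 was 1.78 in TR, 1.77 in RA and 2.42 in TA. On the log2 scale it was 0.68 and 0.98 in the TR libraries, which enclosed the RA values of 0.90, 0.78 and 0.80. Exons of HARS and HARS2 overlap other coding genes, each other included, over 8.5% and 7.0% of their length, and without a stated strand setting reads from the overlap cannot be told apart. The ratio of IARS to IARS2 was 1.48 in TR, 1.72 in RA and 2.68 in TA. Its RA values from 0.27 to 1.35 on the log2 scale enclosed the TR values of 0.53 and 0.59.

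**Figure D3:**
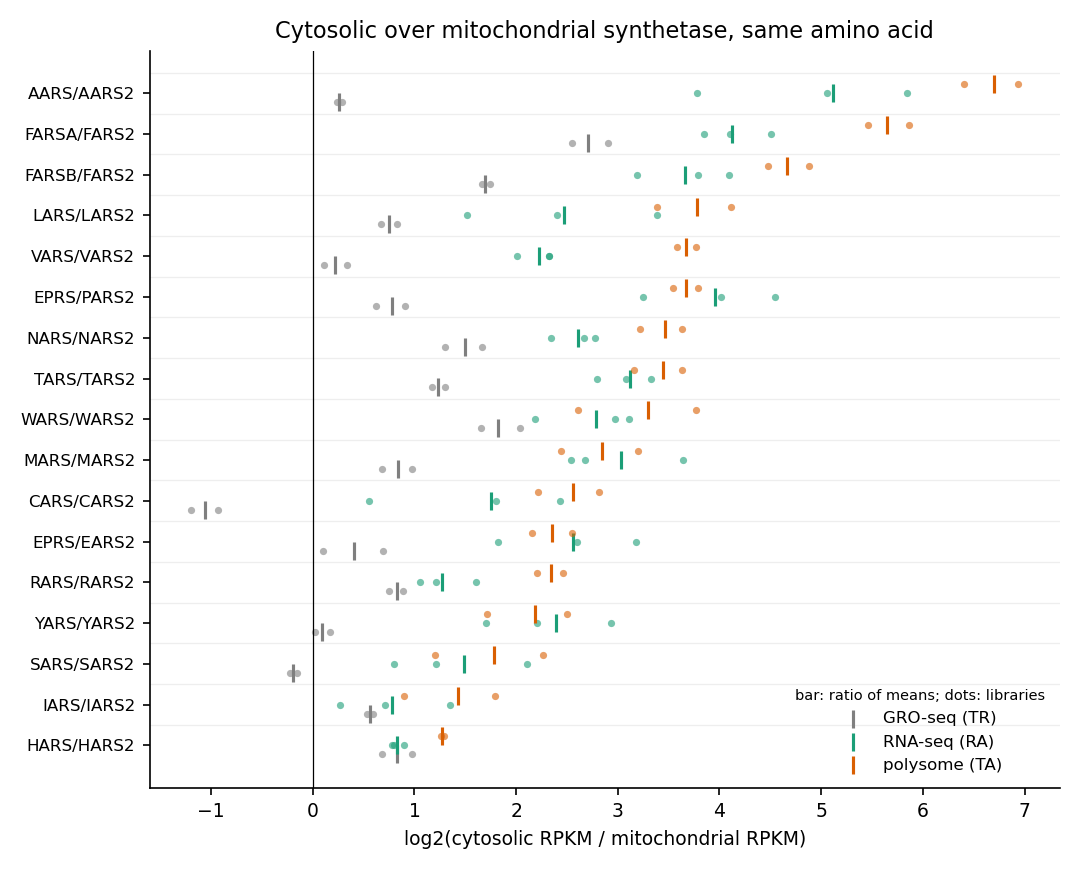
Ratio of the cytosolic to the mitochondrial gene for the same amino acid (log2 of the RPKM ratio, x axis), with dots for single libraries and bars for the ratio of the mean RPKM in TR, RA and TA. The TA values lie to the right of the TR values in all 17 pairs, from 2.42 times for HARS/HARS2 to 103.8 times for AARS/AARS2.

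The cytosolic genes also differed more between replicate libraries of the same assay than the mitochondrial genes did. RA replicate 2 was the highest RA library for 17 of the 20 cytosolic genes, and the order from replicate 1 to replicate 3 to replicate 2 held for 12. The log2 difference of RA replicate 2 from replicate 1 had a median of 0.70 over the cytosolic genes (range -0.32 to 2.03), 0.03 over the mitochondrial genes (-0.76 to 0.62) and -0.02 over the 10825 genes that had a mean RPKM of 1 or more in all 3 measurements. RA replicate 2 was more than 2 times replicate 1 for 8 of the 20 cytosolic genes (40%), 0 of the 16 mitochondrial genes and 476 of the 10825 genes (4.40%). The median SD of log2 RPKM over the 3 RA libraries was 0.39 for the cytosolic, 0.26 for the mitochondrial and 0.24 for the 10825 genes.

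The largest of these differences was that of AARS, at 4.08 times, followed by CARS at 3.25, SARS at 2.76, YARS at 2.69, GARS at 2.60 and MARS at 2.45. CARS, the cysteinyl enzyme, was at 30.8, 100.3 and 69.8 RPKM in RA replicates 1 to 3, and YARS, the tyrosyl enzyme, at 53.5, 144 and 90.6. In the same libraries FARSA, DARS, RARS, KARS and HARS differed by 1.04 to 1.23 times between their lowest and highest values. The GRO-seq libraries showed no such spread: the largest log2 difference between TR replicates was 0.42 among cytosolic and 0.50 among mitochondrial genes.

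The TA libraries also differed. TA replicate 1 was above replicate 2 for 17 of the 20 cytosolic genes, with a median log2 difference of 0.56, against 9 of the 16 mitochondrial genes and a median of 0.02. The difference was over 0.5 for 11 of the 20 cytosolic genes (55.0%), 0 of the mitochondrial genes and 9.20% of the 10825 genes. WARS (2.18 times), IARS (1.97) and YARS (1.93) had the largest differences. Across the 20 cytosolic genes, the RA difference and the TA difference had a Pearson r of 0.64, and across the 10825 genes it was 0.56. This is a correlation across genes from 4 libraries, so the points are not independent. The read totals behind RPKM were 20299018, 22532134 and 20560372 in RA replicates 1 to 3. They were 30805391 and 22421062 in TA replicates 1 and 2. These totals followed the same order, and their part in the differences was not tested.

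**Figure D4:**
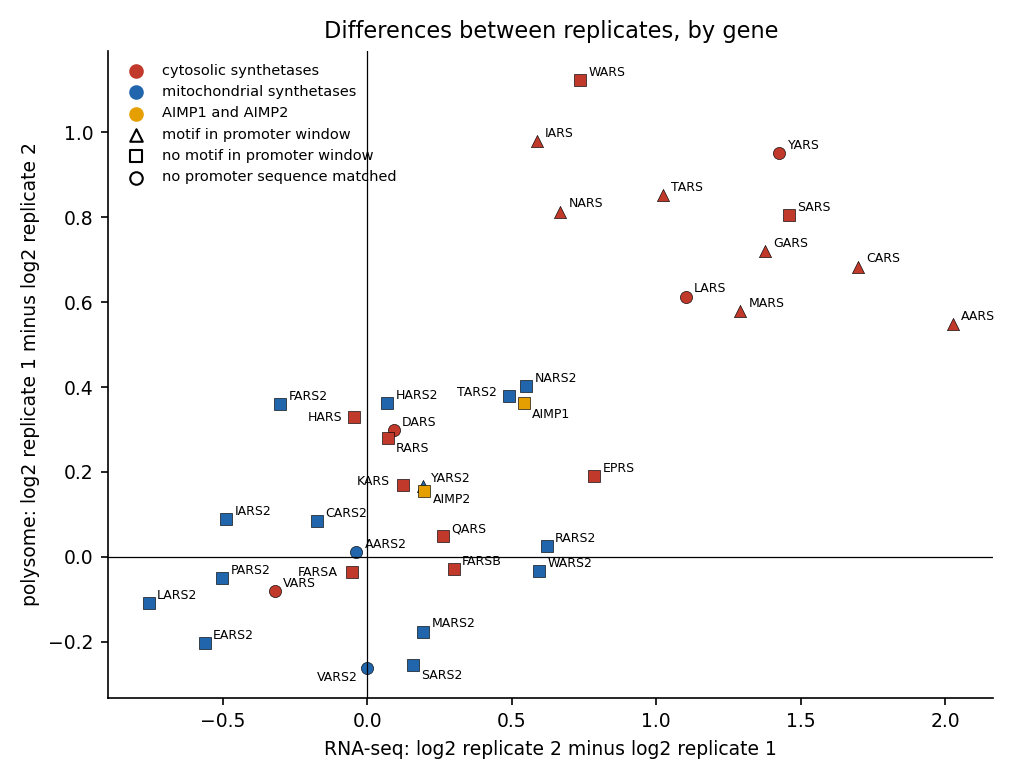
Log2 difference of RNA-seq replicate 2 from replicate 1 (x axis) against that of polysome replicate 1 from replicate 2 (y axis) for each synthetase gene; triangles have TGATGNAA in the promoter window, squares do not, and circles had no matched sequence. The 7 cytosolic genes with the letters lie between 0.59 and 2.03 on the x axis, and the mitochondrial genes between -0.76 and 0.62.

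Set beside the sequences printed above, the 7 cytosolic genes with TGATGNAA in the window had a ratio of RA replicate 2 to replicate 1 of 1.501 to 4.08, with a median of 2.45. The 9 matched cytosolic genes without it ranged from 0.964 to 2.76 with a median of 1.20, so the ranges overlapped. SARS, at 2.76, had no match in its window, and NARS and IARS, which had one, were at 1.59 and 1.501. The mitochondrial gene with the letters, YARS2, was at 1.14, and the other 13 matched mitochondrial genes were at 0.589 to 1.54. The letters were looked up after these differences were known, and whether they bear on the differences was not tested.

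Genes of amino acid synthesis and uptake differed between the same libraries. Over a list of 12 such genes, chosen with earlier results of these data known, RA replicate 2 was mostly above replicate 1. The median log2 difference was 1.08, beside -0.02 over the 10825 genes. RA replicate 2 was more than 2 times replicate 1 for 7 of the 12, against 4.40% of the 10825 genes. ASNS, asparagine synthetase, was at 33.1, 209 and 127 RPKM in RA replicates 1 to 3, at 381 and 196 in the TA libraries and at 15.9 and 25.9 in the TR libraries. SLC3A2, the heavy chain of several amino acid transporters, was at 66.7, 251 and 141 RPKM in RA and at 447 and 265 in TA. PSPH, which makes serine, and ALDH18A1, of proline synthesis, went the other way, with replicate 2 at 0.643 and 0.913 times replicate 1. In the contrasts, 6 of the 12 were called above TR and 1 below, beside 19.2% and 48.0% of all genes, and 4 above RA and 1 below, beside 6.66% and 29.2%.

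On a list of 12 genes for tRNA-dependent amino acid conversion, proofreading, tRNA export and complex partners, 11 were measured. RA was above TR for 3 (EEF1E1, DTD1 and XPOT) and below for 4 (SEPSECS, PSTK, GATC and AARSD1), near the 19.2% and 48.0% of all genes, with a median log2 ratio of -0.25. TA was above RA for EEF1E1 and below for DTD2, a deacylase of mischarged tRNA (log2 ratio -1.13 ± 0.23, limma adjusted p = 0.0095). EEF1E1, the third scaffold of the multi-synthetase complex, was at 8.76 and 10.7 RPKM in TR, 13.7, 19.1 and 17.5 in RA and 27.0 and 24.4 in TA. It was called at both steps, with log2 ratios of 0.77 ± 0.20 and 0.62 ± 0.20 (limma adjusted p = 0.0092 and 0.043). Of GATB, GATC and QRSL1, the subunits of the amidotransferase that makes mitochondrial glutaminyl-tRNA, GATC was below TR (-1.51 ± 0.17, limma adjusted p = 8.9e-05) and GATB and QRSL1 were not called at either step. XPOT, the tRNA exporter, was at 23.9 and 24.7 RPKM in TR, 33.8, 68.7 and 53.6 in RA and 32.0 and 26.04 in TA, with log2 ratios of 1.04 ± 0.28 (limma adjusted p = 0.012) and -0.79 ± 0.28 (0.062).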

How the data were processed

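TR (GRO-seq, 2 libraries), RA (RNA-seq, 3) and TA (polysome profiling, 2) of HCT116 cells were used. The authors mapped reads to hg19 with TopHat, used HTSeq-count for reads in exons, and deposited the result as RPKM for each gene in each library; the submitters' processing notes also name CASAVA. Versions, the gene annotation, the counting mode and the strand setting are not given in the sources used here. All 7 columns were used. Read numbers were recovered from the RPKM values, of which 100% gave whole reads within 0.001. Tests used limma 3.58.1 (R 4.3.3; eBayes with a trend) on log2(RPKM + 0.1), all libraries in 1 fit, Benjamini-Hochberg at 0.05; log2 ratios are on that scale. The test was checked on simulated data. Every replicate pair differed by more than counting noise (chi-square over its degrees of freedom from 7.66 to 158). Genes given library by library were the 3 highest and 3 lowest ratios of each set and step, the subunits FARSA and FARSB, GARS, KARS, HARS, HARS2 and both scaffolds; others were chosen after their values were seen. Members and lists were chosen with earlier results of these data known. A gene first listed among the partners is not reported here. Gene positions and exon overlaps are from GENCODE v44lift37, and sequences are from RefSeq. The GENCODE exons need not be those counted for RPKM. For MARS they cover 7028 bases, against 2915 recovered from the RPKM values, so the overlap shares may not hold for the counted exons. Alternatives changed the pseudocount, the filter, the scaling, the block and the libraries used.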

Additional observations from a re-analysis of the deposited data

How the results depend on the processing

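Pseudocounts of 0.01 and 1, no filter and a filter of 1 RPKM in each measurement changed few members. The exceptions were 3656 genes called below TR under that filter, and differences between the set medians of 0.67 in TR and 2.73 in TA with a pseudocount of 1 and of 0.65 in TR from arithmetic means. Centring the libraries moved most counts. Genes called above were 5066 (RA against TR) and 2713 (TA against RA), and 1404 were below RA. Mitochondrial genes above and below were 7 and 3 for RA against TR and 9 and 0 for TA against RA, and 16 cytosolic genes were above RA. The set medians became 2.29 (cytosolic) and 0.43 (mitochondrial, of opposite sign) for RA against TR, and 1.31 and 0.74 for TA against RA.

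The labels do not say which libraries came from the same culture, and correlations across genes cannot show it. Across 10825 genes the differences of replicates 1 and 2 had r of 0.15 between TR and RA, -0.56 between RA and TA and 0.02 between TR and TA. With the replicate block, 109 genes were above and 1387 below RA, with 1 cytosolic gene above and 1 mitochondrial gene each way. For RA against TR, 15 cytosolic genes were above with the block and 18 with the crossed numbers. Crossing the numbers of RA and TA, chosen after seeing the data, gave 680 and 3542 genes above and below RA, and 1 mitochondrial gene below.

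Leaving out each library in turn gave 198 to 1030 genes above and 1803 to 4228 below RA, 1 to 13 cytosolic genes above with a median of 0.46 to 1.04, 1 to 4 mitochondrial genes above and 1 to 3 below, and a mitochondrial median of 0.14 to 0.30. For RA against TR, 19, 16 and 15 cytosolic genes were above without RA replicates 1, 2 and 3, and 4, 3 and 3 mitochondrial genes. These are not the lowest counts, since AARS, CARS and YARS all lost their calls without either TR library, as given above. The cytosolic median was then 1.65 without TR replicate 1 and 1.55 without TR replicate 2. The cytosolic median ran from 1.42 to 1.72 over all libraries left out in turn. A group left with 1 library was assumed to vary like the others.

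Single ratios changed sign near 0. With each library left out in turn, the ratio of RA to TR ran from -0.013 to 0.27 for EARS2 and from -0.19 to 0.19 for LARS2, which was 0.0080 from arithmetic means. That of TA to RA ran from -0.57 to 0.41 for IARS, -0.032 to 0.61 for MARS, -0.019 to 0.070 for CARS2 and -0.13 to 0.27 for NARS2. Centring turned FARS2 (0.31), LARS2 (0.65), SARS2 (0.16), TARS2 (0.55) and AIMP2 (0.36) above TR, and IARS (0.42), QARS (0.13), FARS2 (0.26) and RARS2 (0.18) above RA. The causes were not tested. The GRO-seq libraries had the fewest reads on the listed genes, and 2 libraries a group limit every test.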

Other observations

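Of 5 cytosolic elongation factor genes, RA was above TR for 3 (EEF1B2, EEF1G and EEF2), where 19.2% of all genes were called above. TA was above RA for none and below for 1 (EEF1B2), and with 6.66% and 29.2% of all genes called above and below, these counts say little about 5 genes. EEF2, which moves the ribosome along the mRNA, was at 210 and 141 RPKM in TR, 1148, 1434 and 1188 in RA and 923 and 829 in TA, with log2 ratios of 2.86 ± 0.32 (limma adjusted p = 0.0001) and -0.52 ± 0.32 (0.24). EEF1A1, which carries charged tRNA, was at 232 and 271 RPKM in TR, 130, 274 and 181 in RA and 103 and 97.1 in TA and was not called at either step.

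Of 9 mitochondrial translation factor genes, RA was above TR for 2 (TUFM and GFM1) and below for 1 (MTRF1L), and TA was above RA for 2 (TUFM and TSFM) and below for 2 (MTIF2 and MRRF), beside 19.2% above TR, 48.0% below TR, 6.66% above RA and 29.2% below RA for all genes. TUFM, the mitochondrial counterpart of EEF1A1, was at 64.6 and 58.4 RPKM in TR, 195, 154 and 155 in RA and 275 and 302 in TA. It was called above at both steps, with log2 ratios of 1.44 ± 0.20 and 0.79 ± 0.20 (limma adjusted p = 0.00033 and 0.020), which no gene of the mitochondrial synthetase list was.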
